A study of Mus musculus with 8 samples.

Results

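The cytosolic ribosomal protein genes encode the protein part of the ribosome that translates nuclear mRNAs. They were taken from the feature names of 4 mouse bone marrow libraries: every symbol that starts with Rpl or Rps followed by a digit, with Rplp0, Rplp1, Rplp2 and Rpsa added, and with names containing -ps, the Rps6k kinases and Rps19bp1 left out. This gave 85 genes of 31054 features, 33 of the small (40S) and 52 of the large (60S) subunit. In each library 84 of the 85 had at least 1 UMI (unique molecular identifier, which counts captured mRNA molecules), and Rpl10l was at 0 in all of them. A level of at least 50 CPM (UMIs of a gene scaled to the same library total) in either library of a comparison was reached by 82 genes, all but Rpl10l, Rpl3l and Rpl39l.

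A ribosome holds 1 copy of nearly every ribosomal protein, so cells make these proteins in near-equal amounts. Many of the mRNAs begin with a run of C and T bases, the 5′ terminal oligopyrimidine tract, through which growth signalling by mTOR controls their translation. Blood formation depends closely on their dosage: loss of a copy of genes such as RPS19 causes Diamond-Blackfan anaemia, and loss of RPS14 belongs to the 5q- syndrome. A few members have a paralog, a related gene whose protein can take the same place in the ribosome (Rps27l for Rps27, Rpl36al for Rpl36a, Rpl22l1 for Rpl22), while Rpl7l1 is a relative of Rpl7 linked to the assembly of the large subunit.

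The series asks what the hedgehog pathway's transcription factor Gli1 does in blood-forming cells in myelofibrosis driven by JAK2V617F, the constitutively active kinase of myeloproliferative neoplasms. Marrow from wild type or Gli1-/- donors aged 8 weeks was transduced with retrovirus carrying JAK2V617F or the unmutated JAK2WT and given to female B6.SJL recipients aged 8 to 10 weeks after 10.5 Gy of irradiation. Marrow was taken at day 112, freed of mature cells with magnetic antibodies (to CD3, B220, TER119, GR1 and CD11b) and sorted for live lineage-negative cells, with and without GFP, before 10x Genomics 3′ sequencing. Each of the 4 groups was 1 library pooled from 3 mice: wild type JAK2WT, wild type JAK2V617F, knockout JAK2WT and knockout JAK2V617F. All donor cells went into irradiated hosts, the transgenes came from a retrovirus, and no cell was assigned to its mouse. There are therefore no replicates, no test and no p-value here, and every interval covers counting error only.

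Values for the 4 libraries are given below in the order of the groups just listed. Kept cells numbered 7196, 3432, 3770 and 6035, with median UMIs per cell of 4424.5, 13250, 17367.5 and 13675, so the wild type JAK2WT library was the shallowest by cell. Pairs of libraries shared 11 to 33 cell barcodes. Gli1 had 0, 2, 0 and 4 UMIs, a depth at which it does not check the knockout label. Cells were grouped into 32 clusters without using the ribosomal protein genes, of which 23 could be named from markers. Shares and CPM between libraries were compared over 5 cell groups with at least 100 cells in each library, weighted alike in all libraries: HSC/MPP-like cells (blood stem and multipotent progenitor cells), granulocyte-monocyte progenitor (GMP) and promyelocyte-like cells, NK and innate lymphoid-like cells, and 2 unnamed clusters. Unnamed cluster 6 was led by F13a1, Ms4a6c and histone genes, and unnamed cluster 13 by Ung, Myc and Cebpa. These averages are called composition-standardised.

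Some of the promoters show the tract from which many of these mRNAs start. Of the 85 genes, 65 were in a RefSeq table of 300-base promoter windows (GRCm38.p6). The sequences below run from 15 bases before to 15 after the annotated start, 5′ to 3′ on the gene's strand. Capitals mark uninterrupted runs of at least 8 C or T bases, which can go on beyond the printed bases. The genes shown are some of those the values below turn on: Rps18, Rpl38 and Rplp0, which differed between libraries, and the pairs Rps27 with Rps27l, Rpl22l1, Rpl36al and Rpl7l1.
Rps18, chr17:33955651-33955680, minus strand: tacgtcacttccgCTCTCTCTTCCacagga
Rpl38, chr11:114668565-114668594, plus strand: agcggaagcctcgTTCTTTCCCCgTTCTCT
Rplp0, chr5:115559452-115559481, plus strand: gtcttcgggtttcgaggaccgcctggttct
Rps27, chr3:90213634-90213663, minus strand: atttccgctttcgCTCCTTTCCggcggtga
Rps27l, chr9:66946071-66946100, plus strand: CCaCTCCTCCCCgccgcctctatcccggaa
Rpl22l1, chr3:28805493-28805522, plus strand: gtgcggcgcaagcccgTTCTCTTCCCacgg
Rpl36al, chr12:69184053-69184082, minus strand: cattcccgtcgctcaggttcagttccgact
Rpl7l1, chr17:46782642-46782671, minus strand: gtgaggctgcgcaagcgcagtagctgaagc

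A C or T run of at least 8 bases that reached within 20 bases of the start was present on the gene's strand in 30 of the 65 windows, or 46.2%, against 20.8% of all 27025 genes in the table. The letters CTTCCG, the core bound by ETS factors, occurred on either strand in 43 windows, or 66.2%, against 17.2% of all genes. AAGATGGC, a YY1 core, occurred in 5 windows (7.69% against 2.88%), and TATAAA in 6 (9.23% against 14.2%). The windows of Rpl36al, Rpl7l1, Rplp0 and Rps28 (sequence not printed) had no run of 8, which says only that these letters are not near the annotated start. The runs marked for Rps27l end before the annotated start.

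Ribosomal protein mRNAs made up about the same part of each library. They took 25.9%, 26.1%, 24.8% and 26.5% of all kept UMIs, with medians over cells of 26.5%, 27.1%, 28.6% and 28.0%. The small subunit supplied 47.0%, 45.3%, 46.0% and 45.7% of ribosomal protein UMIs. Barcodes left out for 10% or more mitochondrial UMIs had lower medians, 15.8%, 11.0%, 10.8% and 14.7%.

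Cell type separated the share far more than library did. Neutrophil-like cells had the lowest medians, 5.70% to 8.25% over the libraries with at least 50 such cells, and plasma cell-like cells 6.02% to 8.86%. These ranges overlap. In both, a few products take much of the mRNA: immunoglobulin took 52.7% to 64.0% of plasma cell UMIs, and the 20 leading other genes took 39.7% to 47.9% of neutrophil UMIs. With those set aside, the ribosomal protein share was 18.0% to 20.6% in plasma cells, where mitochondrial and haemoglobin UMIs were set aside too, and 13.8% to 18.4% in neutrophils.

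The other classes with at least 50 cells in a library lay above 20%. Mesenchymal stromal-like cells, with 37 to 44 cells a library, had medians of 15.6%, 10.8%, 7.96% and 10.8%. Conventional dendritic-like cells had medians of 21.6% to 22.4%, NK and innate lymphoid-like cells 21.8% to 26.1%, and T cell-like cells 23.5% to 25.2%. Monocyte-like cells reached 25.5% to 29.5%, erythroid-like cells 24.95% to 31.1% and GMP and promyelocyte-like cells 26.6% to 28.9%, ranges that overlap one another. The highest medians belonged to HSC/MPP-like cells, 30.2% to 31.9%, and to unnamed cluster 13, 30.02% to 32.8%. The HSC/MPP range did not overlap that of GMP and promyelocyte-like cells.

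**Figure D1:**
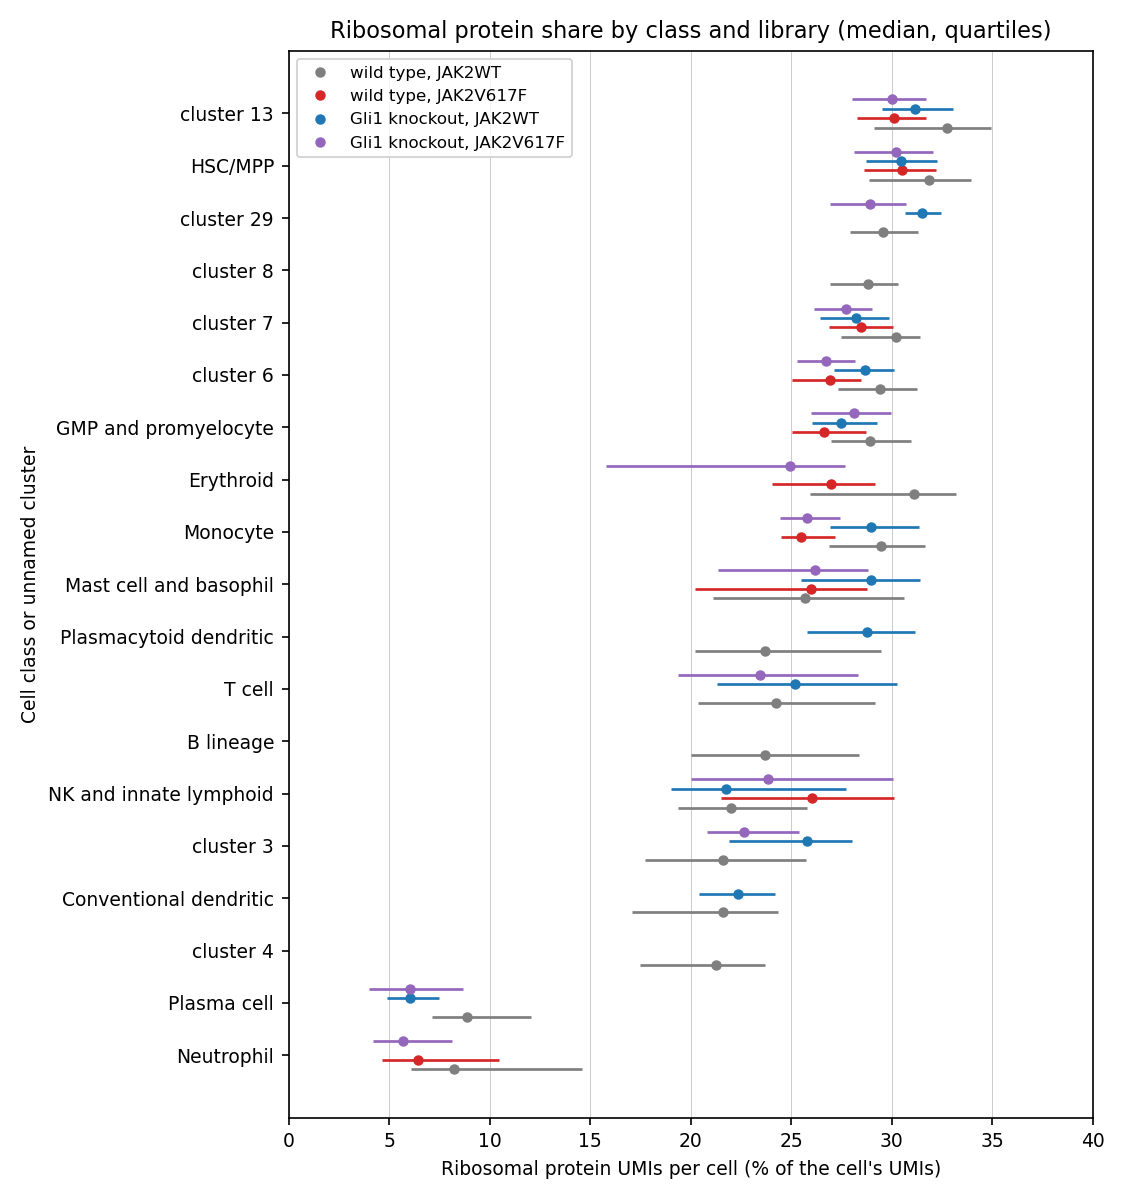
Ribosomal protein UMIs as a percentage of each cell's UMIs (horizontal axis) for each cell class or unnamed cluster (vertical axis), with points for the median and lines for the quartiles over cells, coloured by library; classes under 50 cells in a library are left out. Neutrophil and plasma cell classes sit below 9%, and HSC/MPP and cluster 13 reach medians of 30.02% or more in every library.

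The genes varied together over cell types, with a few exceptions. Over 57 pairs of class and library, the log2 CPM of a member correlated with that of the summed members at a median r of 0.96, and 71 of 82 members exceeded 0.9. These points share libraries, and the members are part of the sum, so the values are a description. The points include neutrophil-like and plasma cell-like cells, with median shares of at most 8.25% and 8.86%, and no r is given here without them. The lowest r belonged to Rpl36al (0.60), Rps27l (0.72), Rps27rt (0.72), Rpl7l1 (0.75) and Rps27 (0.78), all of them members of paralog pairs. Among 6130 genes outside the family, those most like the summed members were Eef1b2 (r = 0.97) and Naca (0.97), followed by Ssb, Eif3e and Rack1 (each 0.96). The least alike were Cib2 (r = -0.85), Tmem154 (-0.78), C130026I21Rik (-0.77), Trib1 (-0.77) and Aldh3b1 (-0.73).

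Within the family, the make-up of the ribosomal protein mRNA pool varied by cell type mainly through these paralogs. As a share of all ribosomal protein UMIs, the range of a member over 19 classes had a median of 0.55 on the log2 scale, and 10 of 82 members spanned at least 1. Rpl36al, on chromosome 12 (chr12:69182731-69184083), spanned the most, 2.01, from HSC/MPP-like to plasma cell-like cells. It gave 6.94, 7.85 and 7.70 of every 1000 ribosomal protein UMIs in the plasma cells of the 3 libraries with at least 50 of them (wild type JAK2WT, knockout JAK2WT, knockout JAK2V617F). In HSC/MPP-like cells it gave 1.81, 1.85, 1.67 and 2.10 per 1000. The plasma cell values were all higher than every HSC/MPP value.

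Rps27 (chr3:90212522-90213651) and its paralog Rps27l (chr9:66946086-66949516), a gene known as a p53 target, went opposite ways in NK and innate lymphoid-like and monocyte-like cells. Rps27 gave 7.37, 7.78, 8.35 and 7.21 per 1000 ribosomal protein UMIs in NK and innate lymphoid-like cells and 3.92, 2.98, 3.50 and 3.29 in monocyte-like cells. Rps27l gave 1.40, 0.848, 1.09 and 1.12 per 1000 in NK and innate lymphoid-like cells and 2.37, 3.02, 2.30 and 3.26 in monocyte-like cells. Neither gene's values overlapped between these 2 classes. The contrast did not extend to every lymphoid class: relative to each gene's mean over classes, plasma cell-like cells had log2 shares of 0.57 for Rps27l and 0.19 for Rps27.

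Rpl7l1 was highest in neutrophil-like cells, at 0.525, 0.817 and 0.744 per 1000 in the 3 libraries that held at least 50. Other members that spanned at least 1 included Rps27rt, Rpl41, Rpl22l1, Rpl10 and Rpl31. At the other end, Rpl18 (0.20), Rpl13 (0.25) and Rpl11 (0.25) had the narrowest ranges.

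**Figure D2:**
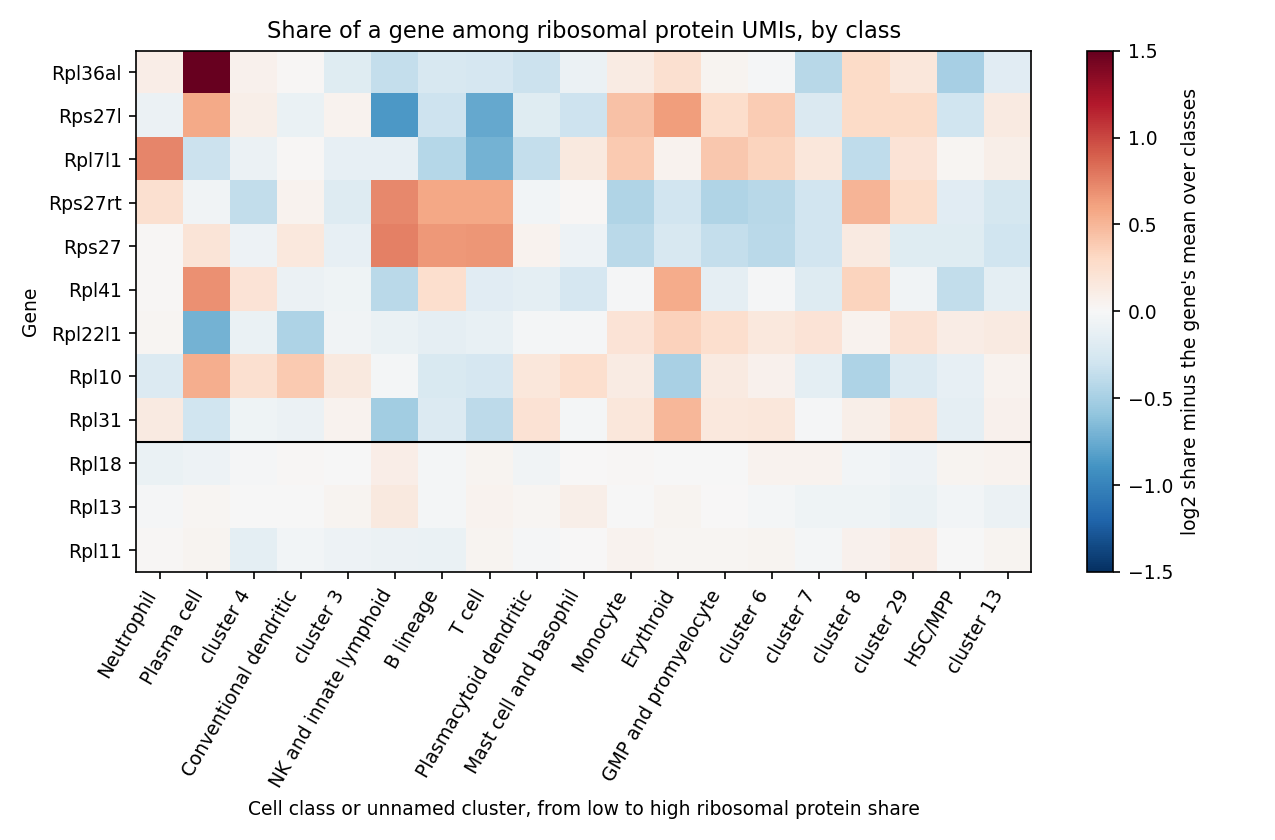
Log2 share of each gene among ribosomal protein UMIs, minus the gene's mean over classes (colour), for 9 of the 10 members with the widest and, below the line, the 3 with the narrowest range (vertical axis) in 19 classes and clusters (horizontal axis, from low to high ribosomal protein share). Rpl36al stands out in plasma cells (1.51), Rps27 in NK and innate lymphoid cells (0.76) and Rps27l in erythroid cells (0.63), while Rpl18 stays within 0.20.

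Many of these genes have processed copies elsewhere in the genome, which bears on how reads were counted. In 43 of the 85, at least 50% of the 60-base stretches in the last 400 bases of the mRNA also occur in other annotated genes. This holds for Rps27 (98.6%), Rpl36a (100%) and Rpl36al (78.0%), and less for Rps27l (23.8%). For the 43, how the authors' counting split reads is uncertain. The same genes are compared with themselves between libraries below.

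With JAK2V617F in wild type marrow, the standardised ribosomal protein share was 28.0% against 29.5% with JAK2WT, a ratio of 0.947 (0.946 to 0.948). In Gli1 knockout marrow the values were 28.1% and 28.4%, a ratio of 0.991 (0.990 to 0.992). The ratio of knockout to wild type was 1.01 with JAK2V617F and 0.962 (0.961 to 0.963) with JAK2WT. All of these differences lie within 6% and have no replicate against which to set them. Without standardisation, over all kept cells, the ratios of JAK2V617F to JAK2WT were 1.01 in wild type and 1.07 in knockout. The direction thus depends on which cell types are counted and how they are weighted.

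By cell type the pattern was sharper. Monocyte-like cells had a median share of 29.5% with JAK2WT and 25.5% with JAK2V617F in wild type marrow, and 29.0% and 25.8% in knockout marrow. Unnamed cluster 6 had ratios of JAK2V617F to JAK2WT of 0.905 in wild type and 0.935 in knockout marrow, and unnamed cluster 13 had 0.914 and 0.951. In these 3 groups the share was lower with JAK2V617F on both backgrounds. HSC/MPP-like cells, given below, shared this direction. So did unnamed cluster 7, with medians of 30.2% and 28.5% in wild type and 28.2% and 27.7% in knockout. Erythroid-like cells had 31.1% and 27.0%, then 29.1% (48 cells) and 24.95%. Mast cell and basophil-like cells differed, at 25.7% and 26.0%, then 29.0% and 26.2%.

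Mitochondrial UMIs moved with the ribosomal protein share in monocyte-like cells. Their median was 2.43% and 1.64% in wild type and 2.89% and 1.73% in knockout marrow, with JAK2WT and JAK2V617F respectively. Median UMIs per monocyte-like cell were 19396 and 28362, then 29319 and 34381. Within cells of 5000 to 20000 UMIs the wild type ratios were 0.948 in cluster 6 and 0.921 in cluster 13, but the knockout ratios were 1.05 and 1.00. Monocyte-like cells of that band without a GFP UMI had medians of 28.9% (152 cells) and 25.7% (7 cells) in wild type, and of 28.3% (40 cells) and 25.4% (37 cells) in knockout, a difference close to that in all cells. Cluster 7 cells of that band without a GFP UMI had medians of 30.5% and 28.5% in wild type, but of 26.8% and 27.5% in knockout. For HSC/MPP-like cells these were 32.7% and 30.7% in wild type, and 30.69% and 30.68% in knockout. The part of depth and of mitochondrial content in the result was not tested.

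GMP and promyelocyte-like cells had a ratio of 0.906 in wild type and 0.999 in knockout, and HSC/MPP-like cells 0.953 and 0.989. NK and innate lymphoid-like cells went the other way, at 1.08 on both backgrounds. Within that class, cluster 0, led by Gata3, Il7r and Il1rl1, had medians of 22.2%, 28.4%, 29.1% and 29.5%. Clusters 12 and 25 stayed between 19.2% and 22.2% in all libraries. Cluster 0 held 130 of 222, 126 of 213, 91 of 217 and 427 of 769 cells of the class. In knockout marrow its part of the class was thus larger with JAK2V617F while its own median was 29.1% and 29.5%, and the cluster mix and the class ratio of 1.08 cannot be told apart there. With median depths of 1969 to 4483 UMIs, this class was the shallowest of the 5.

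Gene by gene, the largest set of differences lay between the wild type libraries. A gene was called higher or lower where its log2 ratio of standardised CPM, with 10 CPM added to both values, was at least 0.32 in size. With JAK2V617F in wild type marrow 3 members were higher and 13 lower of 82, beside 26.8% of 3255 genes called higher and 11.9% called lower. In Gli1 knockout marrow no member was called, beside 1.59% higher and 2.84% lower of 3137 genes. The median log2 ratio of the members was -0.08 in wild type, where all genes had a median of 0.12, and -0.00 in knockout, where all genes had 0.05. Relative to those medians, 10 of 82 members lay above the median gene in wild type and 24 of 82 in knockout. Scaled instead by the median ratio of genes outside the family, the wild type split was 2 higher and 21 lower.

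Between genotypes, 1 member was lower and none higher in knockout than in wild type with JAK2V617F, beside 2.23% of genes called lower and 1.72% higher. With JAK2WT, 3 were higher and 8 lower, beside 16.1% higher and 7.24% lower. The wild type JAK2WT library is part of both comparisons with many calls.

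Rps18, a protein of the head of the small subunit, was the member called between genotypes with JAK2V617F. Its gene lies at chr17:33951999-33956001, and 81.2% of the stretches at its mRNA's end occur in other genes. Its standardised CPM was 2952, 3011, 2431 and 2031. Both knockout libraries were below both wild type libraries. The log2 ratio of knockout to wild type was -0.57 (-0.58 to -0.55) with JAK2V617F and -0.28 (-0.30 to -0.26) with JAK2WT, and was negative in all 5 cell groups in each. With JAK2V617F, Rps18 went from 3233 to 2181 CPM in HSC/MPP-like cells (log2 -0.57) and from 2452 to 1637 CPM in NK and innate lymphoid-like cells (log2 -0.58).

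The other member with both knockout libraries on the same side and a ratio among the 4 highest was Rps7, a small subunit protein that binds the p53 regulator MDM2. Its standardised CPM was 3633, 3586, 4062 and 4409, so both knockout libraries were above both wild type libraries. The log2 ratio of knockout to wild type was 0.30 with JAK2V617F and 0.16 with JAK2WT, under the threshold in each.

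Rps29, a zinc-binding protein of the small subunit and a Diamond-Blackfan anaemia gene, was the lowest member with JAK2V617F on both backgrounds. Its gene lies at chr12:69157722-69159186. Its standardised CPM was 2850, 1795, 2406 and 1941. Both JAK2V617F libraries were below both JAK2WT libraries. The log2 ratio was -0.66 (-0.69 to -0.64) in wild type and -0.31 (-0.32 to -0.29) in knockout marrow, where it just missed the threshold. The sign was the same in all 5 cell groups on both backgrounds, as for 38 of 82 members in wild type and 35 in knockout. In GMP and promyelocyte-like cells the values were 2978 and 1701 CPM in wild type and 2460 and 1978 CPM in knockout.

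Most other members called lower in wild type had ratios near 0 or above it in the knockout, a difference that was not tested. Rps28, whose protein sits near the exit of mRNA from the ribosome, had 3115, 2083, 2324 and 2363 CPM. Its log2 ratio with JAK2V617F was -0.58 in wild type and 0.02 in knockout. Rpl38, known for its part in the translation of Hox mRNAs in the embryo, had 2785, 2040, 2092 and 2253 CPM, with log2 ratios of -0.45 and 0.11. For both genes the wild type JAK2WT library was high and the other 3 lay close together.

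Rps26, another Diamond-Blackfan anaemia gene, followed with 4364, 3360, 3267 and 3600 CPM. Rpl37a had 3407, 2296, 2621 and 2370 CPM, and its log2 ratio was -0.57 in wild type and -0.14 in knockout. Rpl37 had 4390, 3414, 3439 and 3948 CPM, and its log2 ratios were -0.36 and 0.20. The remaining members called lower in wild type were Rps12, Rps21, Rps27, Rpl35a, Rpl36a, Rpl39 and Rpl41. Of the 21 Diamond-Blackfan anaemia genes listed, 5 were called lower and none higher in wild type with JAK2V617F (median log2 -0.12), and none was called in knockout (median -0.00). Over all genes tested in wild type the shares were 11.9% lower and 26.8% higher, and over the whole family 13 of 82 were lower.

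Rplp0, the base of the ribosomal stalk that recruits elongation factors, was among the 3 higher members. Its gene lies at chr5:115559467-115563727. Its standardised CPM was 3135, 4455, 4161 and 4297, so again the wild type JAK2WT library stood apart, here on the low side. The log2 ratio with JAK2V617F was 0.51 (0.49 to 0.53) in wild type and 0.05 in knockout. In wild type all 5 cell groups had the same sign, as for 38 of 82 members. Its stalk partners were not higher: Rplp1 had 5104, 4547, 4842 and 4568 CPM, and Rplp2 had 3755, 3143, 3064 and 3241 CPM.

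The other 2 called higher were Rpl8, at 3219, 4208, 3627 and 3870 CPM (log2 0.39 in wild type and 0.09 in knockout), and Rpl7l1, at 97.9, 149.0, 133.8 and 145.1 CPM (log2 0.56 and 0.11). Rpl3, a core protein near the peptidyl transferase centre, had 2374, 2918, 3088 and 2756 CPM. Its log2 ratio was 0.30 in wild type and -0.16 in knockout.

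Several members of known medical interest were called in no comparison. Rpl5 and Rpl11, which with the 5S RNA restrain MDM2, had 1880, 1938, 1988 and 1889 CPM and 3964, 3925, 3869 and 3840 CPM. Rps19 had 4046, 3638, 3935 and 3317 CPM, and Rps14 had 3310, 3093, 3134 and 2811 CPM, both lowest in the knockout JAK2V617F library. Rpsa, also known as the laminin receptor, had 5558, 6568, 5850 and 5679 CPM. The X-linked Rps4x had 5000, 5252, 5121 and 5208 CPM.

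**Figure D3:**
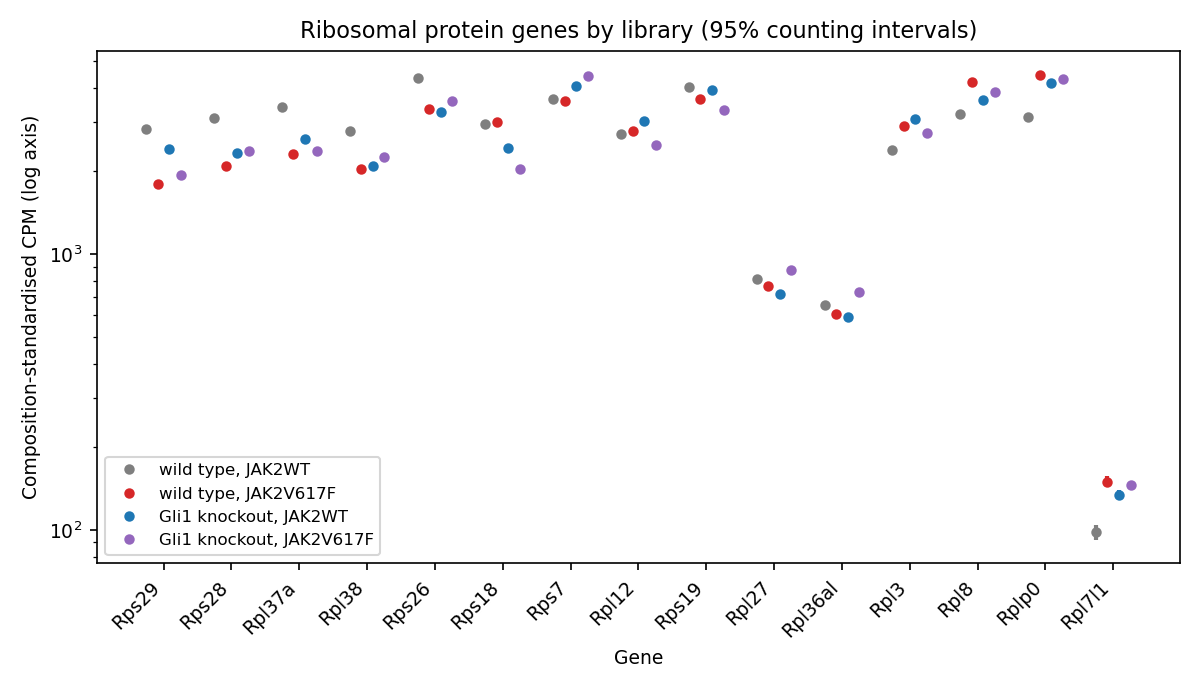
Composition-standardised CPM (vertical log axis) of 15 ribosomal protein genes (horizontal axis) in the 4 libraries (colours), with points for the value and lines for 95% counting intervals. Rps29 is lower in both JAK2V617F libraries, Rps18 is lower in both Gli1 knockout libraries, and for Rps28, Rpl38 and Rplp0 the wild type JAK2WT library stands apart from the other 3.

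The calls sorted by the length of the coding sequence, a property noticed after the values had been seen. The median coding length of the 82 members was 453 bases. All 13 members lower with JAK2V617F in wild type were below it, and all 3 higher members at or above it. Short members had a median log2 ratio of -0.18 and long members of 0.05. Across members, Spearman's rho of coding length and log2 ratio was 0.81, and -0.13 across 3149 other genes. These are correlations across genes, which are not independent replicates.

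In knockout marrow rho was -0.25, with medians of 0.02 for short and -0.02 for long members. For knockout over wild type it was -0.51 with JAK2V617F and 0.80 with JAK2WT. The strongly positive values both come from comparisons that contain the wild type JAK2WT library, the shallowest by cell. Summed over all kept cells, and so not standardised for cell type, Malat1 was 12959 CPM in that library against 4620 to 8715 CPM in the others. By cell group rho was 0.60 to 0.78 for JAK2V617F over JAK2WT in wild type. Among cells of 5000 to 20000 UMIs it was 0.79. The part of library depth beyond this band, and of RNA quality, was not tested.

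**Figure D4:**
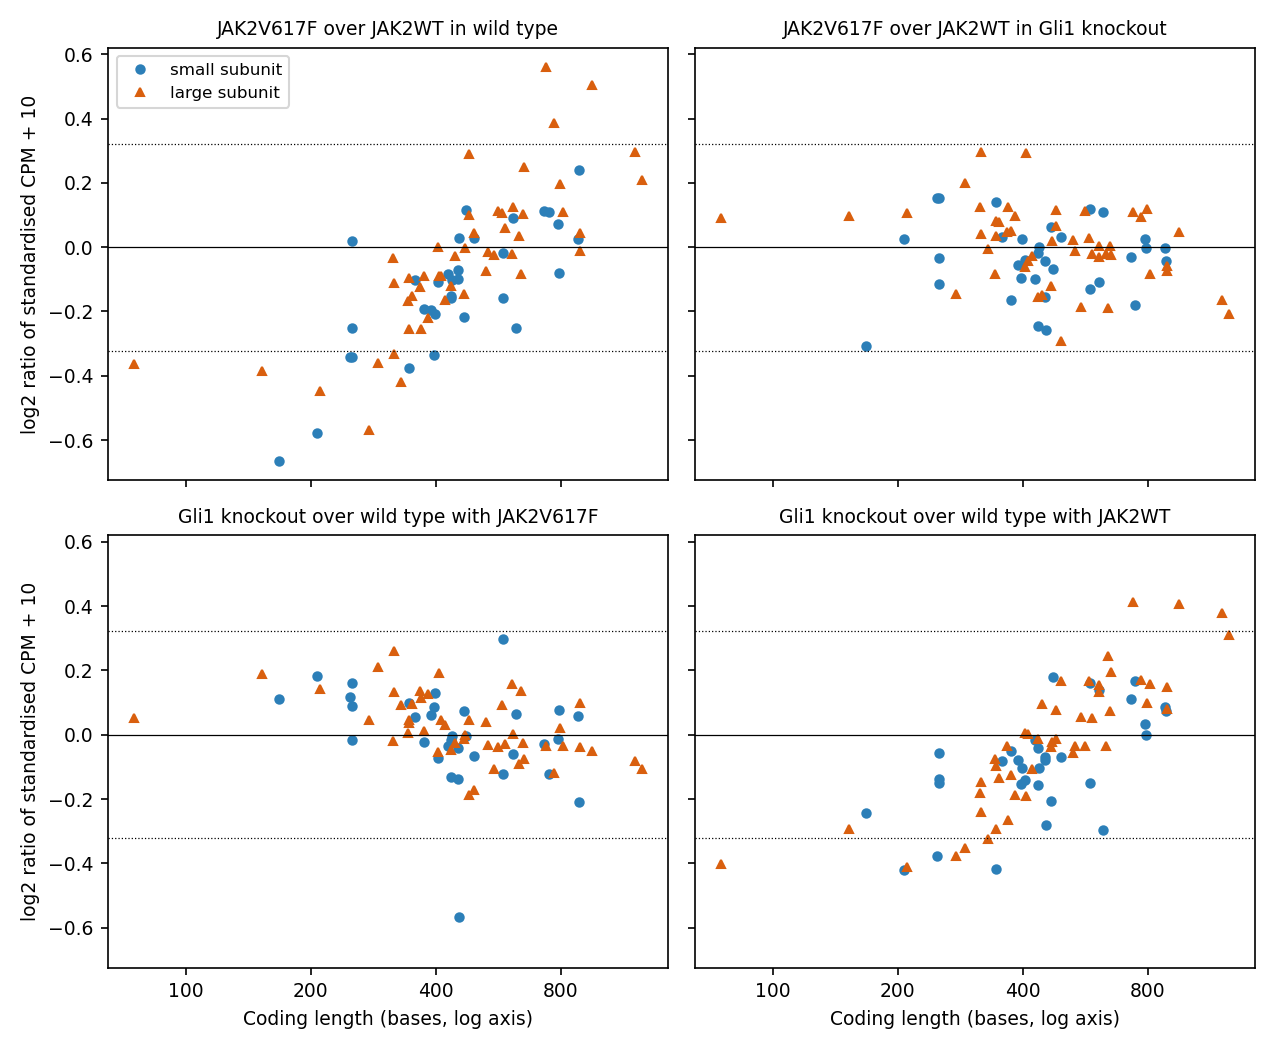
Log2 ratio of standardised CPM with 10 added (vertical axis) against coding length in bases (horizontal log axis) for 82 members in the 4 comparisons (panels), circles for the small and triangles for the large subunit, dotted lines at the threshold of 0.32. Points rise with length in the comparisons that contain the wild type JAK2WT library (rho 0.81 and 0.80) and not in the other 2 (rho -0.25 and -0.51).

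Paralog pairs give a comparison within the same cells. Rps27 and Rps27l have the same coding length, 252 bases, as do Rpl36a and Rpl36al with 318 bases. The share of the paralog in its pair's UMIs was taken in 8 cell groups with at least 50 cells in each library: the 5 above, monocyte-like cells, mast cell and basophil-like cells, and unnamed cluster 7, led by Pf4, H1fx and Ctla2a. The pairs were listed by role, and their shares between libraries were set side by side after the values had been seen.

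The Rps27l share was higher with JAK2V617F in 7 of 8 cell groups in wild type and in 8 of 8 in Gli1 knockout marrow. In monocyte-like cells it was 37.6% with JAK2WT and 50.4% with JAK2V617F in wild type, and 39.6% and 49.8% in knockout. In cluster 6 the values were 37.7% and 49.0%, then 38.4% and 48.4%. Both JAK2V617F libraries were thus above both JAK2WT libraries in these 2 groups, as in every other group but NK and innate lymphoid-like cells. The interval of the difference in monocyte-like cells was 10.5 to 14.9 points in wild type and 8.92 to 11.4 points in knockout. Among cells of 5000 to 20000 UMIs the Rps27l difference in cluster 6 was 8.03 points in wild type and 5.14 points in knockout, against 11.2 and 9.95 points in all cells. In knockout monocyte-like cells of that band it was 9.40 points.

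The other cell groups spread more widely. HSC/MPP-like cells had an Rps27l share of 26.1% and 34.3% in wild type and of 25.8% and 29.4% in knockout. GMP and promyelocyte-like cells had 35.8% and 46.6% in wild type, and 39.7% and 40.6% in knockout, where the interval of the difference reached from -0.12 to 1.88 points. Among GMP and promyelocyte-like cells of 5000 to 20000 UMIs the Rps27l difference was 7.56 points in wild type and -2.22 points in knockout. Mast cell and basophil-like cells had 23.7% and 33.0%, then 24.6% and 28.9%. NK and innate lymphoid-like cells were the exception in wild type, at 16.0% with JAK2WT and 9.82% with JAK2V617F, against 11.6% and 13.5% in knockout.

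Rpl36al showed the same direction within its pair with the X-linked Rpl36a. Its share was higher with JAK2V617F in 7 of 8 cell groups in wild type (interval above 0 in 5) and in 8 of 8 in knockout (above 0 in 7). In monocyte-like cells it was 31.2% and 33.9% in wild type and 29.97% and 37.5% in knockout. In HSC/MPP-like cells it was 20.9% and 24.3%, then 22.4% and 25.4%. NK and innate lymphoid-like cells again went the other way in wild type, 27.1% and 23.6%, within an interval of the difference that included 0.

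Rpl7l1 (738 coding bases) took a small share beside Rpl7 (810 coding bases), yet it was higher with JAK2V617F in 8 of 8 cell groups on both backgrounds, with the interval above 0 in 6 of 8 on each. In GMP and promyelocyte-like cells its share was 4.58% and 6.36% in wild type and 5.597% and 5.92% in knockout. In monocyte-like cells it was 4.21% and 6.31%, then 4.64% and 6.55%. Rpl22l1 stood apart from the other paralogs. Beside Rpl22 its share was higher in 6 of 8 groups in wild type and in 3 of 8 in knockout, and all differences in knockout lay between -1.23 and 1.52 points.

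Both partners of a pair differed between libraries. As standardised CPM, Rps27l had 570.5, 578.1, 512.9 and 571.8 CPM and Rps27 had 1396, 1100, 1269 and 1170 CPM. In the standardised average the Rps27 values were lower with JAK2V617F on both backgrounds, while Rps27l differed by a log2 ratio of 0.02 in wild type and 0.15 in knockout. In monocyte-like cells, which are not part of that average, Rps27l had 701.5, 780.7, 660.8 and 840.3 CPM and Rps27 had 1162.5, 769.6, 1008.5 and 848.4 CPM. There Rps27l was higher and Rps27 lower with JAK2V617F on both backgrounds. As standardised CPM, Rpl36al had 654.7, 605.3, 590.6 and 727.1 CPM, and Rpl36a had 1966, 1560, 1663 and 1710 CPM. The shared ends of Rps27, Rpl36a and Rpl36al make their levels uncertain. In monocyte-like cells the mitochondrial medians given above were lower with JAK2V617F on both backgrounds, and those of the other cell groups are not given here. The part of mitochondrial content in these shares was not tested.

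**Figure D5:**
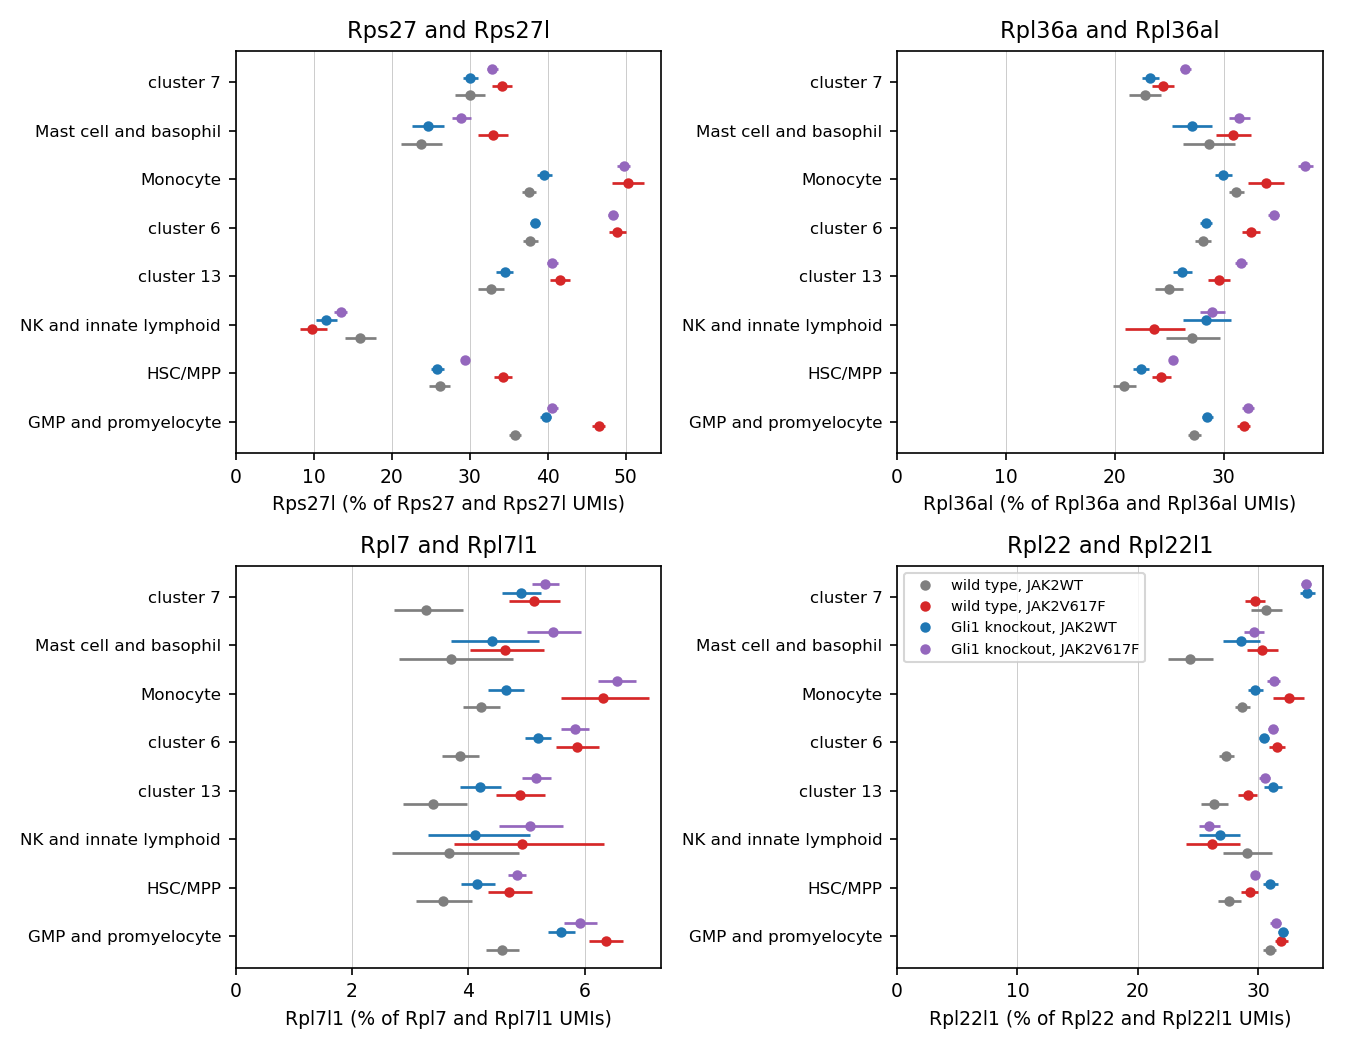
Share of the paralog in the UMIs of its pair (horizontal axis, %) in 8 cell groups (vertical axis) and 4 libraries (colours), with points for the share and lines for exact 95% binomial intervals, for 4 pairs (panels). For Rps27l in monocyte-like cells and cluster 6 the JAK2V617F libraries lie at 48.4% to 50.4% and the JAK2WT libraries at 37.6% to 39.6%. For Rpl22l1 in the same groups the JAK2V617F libraries lie at 31.3% to 32.5% and the JAK2WT libraries at 27.4% to 30.5%.

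Of the remaining paralogs, Rpl3l, Rpl39l and Rpl10l were near the floor. Rpl3l, a muscle paralog of Rpl3, had 38, 22, 10 and 48 UMIs in all kept cells, and Rpl39l, known from the testis, had 16, 1, 12 and 123. Rps27rt, whose annotated promoter window shares a 38-base run with that of Rps27, took 4.18% to 4.50% of the UMIs of Rps27 and Rps27rt together. At 0 UMIs in every library, Rpl10l stays under 3 UMIs of each library's total.

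Genes that act with the ribosomal proteins were counted for the same comparisons. Of 20 listed ribosome biogenesis genes, 15 passed 50 CPM, and in wild type with JAK2V617F 8 were higher and none lower, with a median log2 ratio of 0.41. Rrs1, an assembly factor of the large subunit, went from 67.0 to 122.9 CPM. In knockout none of the 15 was called, and the median was 0.03. The 66 mitochondrial ribosomal protein genes that passed had 20 higher and 1 lower in wild type (median 0.24) and none called in knockout (median 0.12). Of 24 translation factors and other terminal oligopyrimidine genes, 6 were higher and none lower in wild type, and 1 was higher in knockout. The background shares of called genes given above, 26.8% higher in wild type, apply to these counts too.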

How the data were processed

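Per the labels, 4 mRNA libraries (10x 3′ v3.1) were deposited as counts: raw UMIs per gene and called cell barcode, not normalised by the authors. The submitters' processing notes name Cell Ranger 4.0.0, mm10 and Seurat 4.0.4 without roles. The 4 hashtag libraries were not analysed here. Cells were kept with at least 500 genes, 1000 UMIs and under 10% mitochondrial UMIs, and the highest Scrublet scores, 0.8% per 1000 barcodes, were removed (791, 170, 229 and 455 cells). Library totals were 72458173, 59165347, 84063880 and 114847114 UMIs. Clustering used scanpy 1.11.5 (with pandas 2.3.3, anndata 0.12.19, scipy 1.17.1, igraph 0.11.9, numpy 2.4.6, matplotlib 3.10.9, scikit-learn 1.9.0 and Python 3.11.15): 2000 variable genes without members, 30 components, 15 neighbours, Leiden resolution 1. Names came from 17 marker sets (score at least 0.5, 3 markers at 50 CPM, margin 0.2, 2 among the top 10 genes), with thresholds set after the clusters had been seen. A name means resemblance.

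Summed counts per library and cell group were averaged with weights of 24.4% (GMP and promyelocyte), 31.3% (HSC/MPP), 16.9% (NK and innate lymphoid), 11.5% (cluster 13) and 15.8% (cluster 6). Genes needed 50 CPM in either library. Intervals are 95%: exact Clopper-Pearson for shares, gamma (Fay and Feuer) for standardised CPM and log-normal for ratios. UMIs of 3′ ends were not divided by length. GENCODE M21 (GRCm38, the assembly of mm10) gave coordinates and coding lengths and matched 30934 features and all 85 members. Named genes were the 4 highest and 4 lowest ratios per comparison with the same sign in 0.75 of the cell groups, the 6 widest ranges over classes, the 5 highest and 5 lowest levels, and members listed by role; other members called are named because they were called. Values of a few genes that meet this rule are not reported here. The members and lists were chosen with earlier results of these data known. The scripts were tested on simulated data.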

Additional observations from a re-analysis of the deposited data

Results flagged for a closer look

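For 13 of the members described, the log2 ratio of JAK2V617F to JAK2WT had opposite signs in the wild type and the Gli1 knockout libraries, with counting intervals clear of 0 and a difference of at least 0.32. With 1 library per group, the difference between the genotypes was not tested. Only named members were searched, many of them named for extreme ratios in these comparisons, and the count was not set against all genes. Across the members that passed 50 CPM, rho of coding length and log2 ratio was 0.81 in wild type and -0.25 in knockout. The part of coding length in the opposite signs was not tested. The difference, knockout minus wild type on the log2 scale, was 0.60 for Rps28, 0.56 for Rpl37, 0.55 for Rpl38, 0.52 for Rps26, 0.48 for Rpl39 and 0.45 for Rpl41. It was 0.41 for Rpl36al, 0.38 for Rpl27, 0.37 for Rpl36a and 0.34 for Rplp2. These 10 genes were lower with JAK2V617F in wild type and higher in knockout marrow. The other 3 went from higher to lower, with differences of -0.46 for Rpl3, -0.42 for Rpl4 and -0.34 for Rpl12. Rpl12, a protein at the base of the stalk, had 2713, 2800, 3046 and 2484 CPM in the 4 libraries in the order of the report. Rpl27, a Diamond-Blackfan anaemia gene, had 814.7, 764.8, 713.3 and 875.7 CPM, lowest in the knockout JAK2WT and highest in the knockout JAK2V617F library.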

How the results depend on the processing

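Ratios of the standardised share are given as JAK2V617F over JAK2WT in wild type, the same in knockout, knockout over wild type with JAK2V617F, and the same with JAK2WT (reported: 0.947, 0.991, 1.01 and 0.962). A stricter cell filter (1000 genes, 2000 UMIs, 5% mitochondrial) gave 0.926, 0.993, 1.01 and 0.943, cells of 5000 to 20000 UMIs (without NK and innate lymphoid cells) 0.951, 1.03, 0.988 and 0.909, and no doublet removal 0.953, 0.996, 1.01 and 0.964. Resolution 2 gave 0.9496, 1.00, 1.01 and 0.959, and sums over all kept cells 1.01, 1.07, 1.02 and 0.958. Medians over cells gave 0.966, 1.00 and 0.995 for the first 3 ratios, and named classes only, added after seeing the data, 0.962, 1.01 and 1.01. Clusters that used ribosomal protein genes gave 0.945 for the first, 1.00 for the third and 0.953 for the fourth ratio, leaving out mitochondrial, haemoglobin and immunoglobulin UMIs 0.940 and 0.982 for the first and second, and equal weights 0.987 and 1.00 for the second and the third. Leaving out each class in turn gave 0.926 to 0.960, 0.976 to 1.00, 0.994 to 1.01 and 0.959 to 0.966. At 1.5-fold the members called were 1, 0, 0 and 0. In knockout, JAK2V617F over JAK2WT called 2 from sums over all cells and 2 after median scaling. Knockout over wild type with JAK2V617F called 2 in cells of 5000 to 20000 UMIs and 3 from sums over all cells. Of 253 alternative values for called named members, all 253 kept their direction and 237 stayed past the threshold. Spearman's correlation with coding length ranged from 0.64 to 0.82, -0.29 to -0.10, -0.52 to -0.20 and 0.69 to 0.82 over 11 alternatives chosen after seeing the data. In cells of 5000 to 20000 UMIs, the Rpl22l1 share in knockout monocyte-like cells was -1.84 points with JAK2V617F (reported 1.52), and the Rps27l share in knockout GMP and promyelocyte-like cells -2.22 points (0.875) and in knockout cluster 6 5.14 points (9.95). The cause was not tested. No paired analysis was possible because each group has 1 library and the groups share only replicate number 1. Depth limits Rpl3l, Rpl39l, Rps27rt and the NK and innate lymphoid class.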

Other observations

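GFP transcript, which the sort relied on as protein, was found in 40, 90, 6 and 59 kept cells of the 4 libraries. In mast cell and basophil-like cells, a class singled out after its values were seen, the 14 cells with a GFP UMI in the wild type JAK2V617F library had a median ribosomal protein share of 20.6%, against 26.4% in the 152 cells without. In the Gli1 knockout JAK2V617F library the 19 cells with a GFP UMI had 21.1%, against 26.4% in 284 cells without. Their median UMIs per cell were 10293 against 7683 in wild type and 14488 against 9794 in knockout. Among cells of 5000 to 20000 UMIs the medians were 20.5% (11 cells) against 27.7% (97 cells) in wild type and 20.7% (12 cells) against 27.6% (184 cells) in knockout. In erythroid-like cells of the wild type JAK2V617F library the medians were 25.2% in 45 cells with and 27.0% in 1155 cells without a GFP UMI. Neutrophil-like cells went the other way: cells with a GFP UMI had 9.66% (6 cells) against 6.38% (196 cells) in the wild type and 8.87% (12 cells) against 5.58% (249 cells) in the knockout JAK2V617F library, with median UMIs of 20538 against 10583 and 38930.5 against 13652. Cells of 1 library are not replicates, and a cell without a GFP UMI may still carry the virus.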
